A study of Mus musculus with 10 samples.

Results

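The LGI proteins are secreted ligands and the ADAM22 family proteins are their receptors on neurons. Both gene families were examined in mice, in granule cell tissue dissected from the dorsal dentate gyrus, after self-administration of cocaine or of saline. The members were taken by gene symbol from the deposited count table, and all 7 (Lgi1, Lgi2, Lgi3, Lgi4, Adam11, Adam22 and Adam23) were found among its 49315 genes. All 7 passed the low-count filter and were tested with the other genes, 17080 in all.

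LGI1 binds ADAM22 and ADAM23 across the synapse, where the complex is tied to the postsynaptic scaffold PSD-95, to AMPA-type glutamate receptors and to voltage-gated potassium channels of the Kv1 class. Mutations of LGI1 cause an inherited epilepsy of the temporal lobe, and antibodies against it cause limbic encephalitis, a disease in which the hippocampus is affected. ADAM11, ADAM22 and ADAM23 carry the fold of the ADAM metalloproteases but lack the active protease site, and act as receptors and adhesion proteins.

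Each of the 10 libraries came from 1 male C57 BL/6 mouse, 5 with cocaine and 5 with saline as the treatment, and all were named for self-administration. Not given in the sources used here were doses, sessions and ages. The tissue was a dissected layer and not sorted cells, and poly(A) RNA was sequenced. Library totals ran from 34991548 to 46481533 counts. The 8 granule cell markers were detected in every group, with summed levels between 1127 and 1958 CPM (counts scaled for library size) in the cocaine group and between 1418 and 2035 CPM in the saline group. Markers of other cells were present too, and the 15 oligodendrocyte markers summed to 4024 to 10621 CPM in the cocaine group and 3955 to 5667 CPM in the saline group. The 9 choroid plexus markers, each above 1 in fold change with a median of 1.08 on the log2 scale, summed to 61.7 to 3621 CPM with cocaine and to 94.4 to 1400.0 CPM with saline. Neat1, Malat1 and Meg3, RNAs held in the nucleus, together took 0.103% to 0.255% of counts with cocaine and 0.0713% to 0.120% with saline. The part of these differences in the members' values was not tested. Fits with the oligodendrocyte markers, the choroid plexus markers or the share of these nuclear RNAs as a covariate are given further on. No covariate was fitted for the granule cell markers. Cocaine replicate 5 stood apart from the rest, at −54.2 on the first principal component, where the others lay between −27.9 and 25.2. Fold changes, list counts and the genes most like each member were also computed without it.

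None of the 7 genes differed between cocaine and saline at an adjusted p below 0.05 in edgeR, where 0 of all 17080 genes did (0%). The receptor gene Adam23 had the smallest p of the 7. It was lower with cocaine, with a log2 fold change of −0.18 (SE 0.07), and did not pass after adjustment. The log2 fold changes of the other members lay between −0.15 and 0.14, with Lgi3 at the upper end and Lgi2 at the lower. In each member the libraries of the groups overlapped. Over all genes tested 1.38% had groups that did not overlap, 0.773% with cocaine higher and 0.609% with cocaine lower. Fold changes were above 1 in 3 members and below 1 in 4, where 53.6% of all genes lay above 1 and 46.4% below. An unadjusted p under 0.05 was found for 1 of the 7, Adam23, and for 8.91% of all genes tested.

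Adam22 and Adam23 had a start site in the RefSeq promoter table (build GRCm38.p6). The 250 bases before it held no gene of the count table. Those bases are shown because Adam22 codes for the main postsynaptic receptor of LGI1 and Adam23 had the smallest p. The promoter table matched 4 of the 7 members, Lgi1 and Lgi2 being the others, whose 250 bases overlapped their own genes. Both sequences read 5′ to 3′ along the gene, at chr5:8368161-8368410 on the minus strand for Adam22 and chr1:63445641-63445890 on the plus strand for Adam23. Capitals mark the motif matches that are described after the sequences.
Adam22: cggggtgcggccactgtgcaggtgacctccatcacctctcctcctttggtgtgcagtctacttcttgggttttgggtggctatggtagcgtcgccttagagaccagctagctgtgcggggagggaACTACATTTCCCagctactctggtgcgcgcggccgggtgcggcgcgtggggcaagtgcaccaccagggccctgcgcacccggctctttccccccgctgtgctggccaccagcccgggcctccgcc
Adam23: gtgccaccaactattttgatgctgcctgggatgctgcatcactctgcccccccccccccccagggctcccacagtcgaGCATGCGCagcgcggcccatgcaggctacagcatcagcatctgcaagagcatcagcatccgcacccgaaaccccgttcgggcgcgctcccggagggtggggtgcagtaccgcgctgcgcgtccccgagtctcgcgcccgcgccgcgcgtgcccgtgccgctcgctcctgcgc
The capitals in Adam22 match the module known from promoters bound by ZNF143 and THAP11, with any base at its seventh and eighth positions, and begin 125 bases before the start. In Adam23 they match GCATGCGC, the core of the NRF1 motif, and begin 172 bases before the start. On either strand the former was found in 1.67% and the latter in 2.26% of 32851 windows of this length in the promoter table. Also searched were TGACGTCA, the cyclic AMP response element through which activity can switch genes on, and GGGCGG, the GC box, found in 1.55% and 32.7% of the windows. Neither Adam22 nor Adam23 held these letters in this window. Lgi1 held 3 and Lgi2 held 2 GC boxes and no other of these motifs. The motifs were chosen after the sequences had been read, and a match describes letters and not binding. GC content was 66.8% for Adam22 and 70.4% for Adam23, against a median of 52.4% over the windows.

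Among the ligands, Lgi1 is the gene of temporal lobe epilepsy and the best studied of the family. It lies on chromosome 19 from 38264536 to 38312214 (plus strand; this and the coordinates of the genes that follow are mm10, GENCODE M21). Its level was 214, 285, 271, 249.8 and 223 CPM in cocaine replicates 1 to 5. With saline it was 269, 251, 256, 279.9 and 290.0 CPM in replicates 1 to 5. Cocaine replicates 1, 4 and 5 lay below every saline library, replicate 4 by a narrow margin, and replicates 2 and 3 lay within the saline range. The log2 fold change was −0.11 (SE 0.09), with a 95% interval of −0.30 to 0.07 and an adjusted p of 0.703 in edgeR. An antisense gene, Gm42723, shares 532 exonic bases with Lgi1 and had a mean count of 1.3 per library. Whether the counting used strand is not stated, so reads from the shared bases cannot be assigned to either gene.

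Lgi2, a ligand gene whose loss causes an epilepsy of young dogs that remits with age, lies on chromosome 5 from 52533517 to 52566462 (minus strand). It stood at 61.1, 45.7, 43.5, 56.2 and 35.5 CPM in cocaine replicates 1 to 5. Its saline levels were 54.5, 62.8, 56.2, 51.7 and 44.1 CPM in the same order of number. Cocaine replicate 5 was the lowest of all 10 libraries and saline replicate 2 the highest. The log2 fold change of −0.15 (SE 0.14) had a 95% interval of −0.45 to 0.14, the widest of the members, and an adjusted p of 0.750. Without cocaine replicate 5 it was −0.06.

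Lgi3 codes for a brain ligand that helps to gather Kv1 channels along myelinated axons, and lies on chromosome 14 from 70530685 to 70538324 (plus strand). With cocaine it stood at 182, 152, 153, 197 and 156 CPM in replicates 1 to 5. With saline it stood at 129, 147, 169, 158 and 159 CPM. Cocaine replicates 1 and 4 lay above every saline library, and the other cocaine libraries lay within the saline range. Lgi3 had a log2 fold change of 0.14 (SE 0.10), with a 95% interval of −0.07 to 0.35 and an adjusted p of 0.677.

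Lgi4, the ligand gene that Schwann cells need to myelinate peripheral nerves, lies on chromosome 7 from 31059342 to 31070935 (plus strand). It stood at 41.3, 38.7, 44.7, 45.4 and 50.4 CPM in cocaine replicates 1 to 5 and at 38.6, 41.7, 41.9, 40.0 and 43.3 CPM in those of saline. Cocaine replicates 3, 4 and 5 lay above every saline library. Lgi4 had a log2 fold change of 0.10 (SE 0.08; 95% interval −0.07 to 0.27) and an adjusted p of 0.713. Without cocaine replicate 5 it was 0.05. Fxyd3 runs on the opposite strand and shares 2059 exonic bases with Lgi4. Its mean count was 11.1 per library, against 1534 or more for Lgi4, and reads from the shared bases cannot be assigned for the same reason.

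Among the receptors, Adam11, which in the cerebellum is needed to place Kv1 channels at inhibitory terminals, lies on chromosome 11 from 102761439 to 102780262 (plus strand). Its level was 251, 260.1, 243, 226 and 189 CPM in cocaine replicates 1 to 5 and 237, 202, 232, 227 and 225 CPM in those of saline. Cocaine replicates 1, 2 and 3 lay above every saline library and cocaine replicate 5 lay below them. Adam11 had a log2 fold change of 0.06 (SE 0.09), with a 95% interval of −0.13 to 0.25 and an adjusted p of 0.870. Without cocaine replicate 5 it was 0.13 with an adjusted p of 0.398.

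Adam22, the postsynaptic receptor through which LGI1 reaches PSD-95, lies on chromosome 5 from 8072352 to 8368160 (minus strand), next to the promoter sequence shown above. It stood at 182, 195, 164, 175 and 122 CPM in cocaine replicates 1 to 5. The saline libraries lay close together, at 180.5, 175, 178, 188 and 178 CPM. Cocaine replicate 5 was far below the rest and replicate 2 of that group was the highest of all libraries. The log2 fold change was −0.10 (SE 0.11), with a 95% interval of −0.33 to 0.13 and an adjusted p of 0.786, and without cocaine replicate 5 it was −0.01.

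Adam23, a largely presynaptic receptor of LGI1, lies on chromosome 1 from 63445891 to 63596276 (plus strand). It stood at 124, 119, 108, 106 and 105 CPM in cocaine replicates 1 to 5. With saline it stood at 122, 125, 136, 119 and 133 CPM. Cocaine replicates 2, 3, 4 and 5 lay below every saline library, and replicate 1 lay within their range. The log2 fold change was −0.18 (SE 0.07), with a 95% interval of −0.34 to −0.02. The unadjusted p was 0.0283 and the adjusted p 0.528 in edgeR, and 3.33% of all genes tested were lower at that unadjusted level. Leaving out any 1 library kept the log2 fold change between −0.22 and −0.16, and without cocaine replicate 5 it was −0.16. Without cocaine replicate 1 the groups did not overlap in Adam23, as in 2.22% of all genes tested there.

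**Figure D1:**
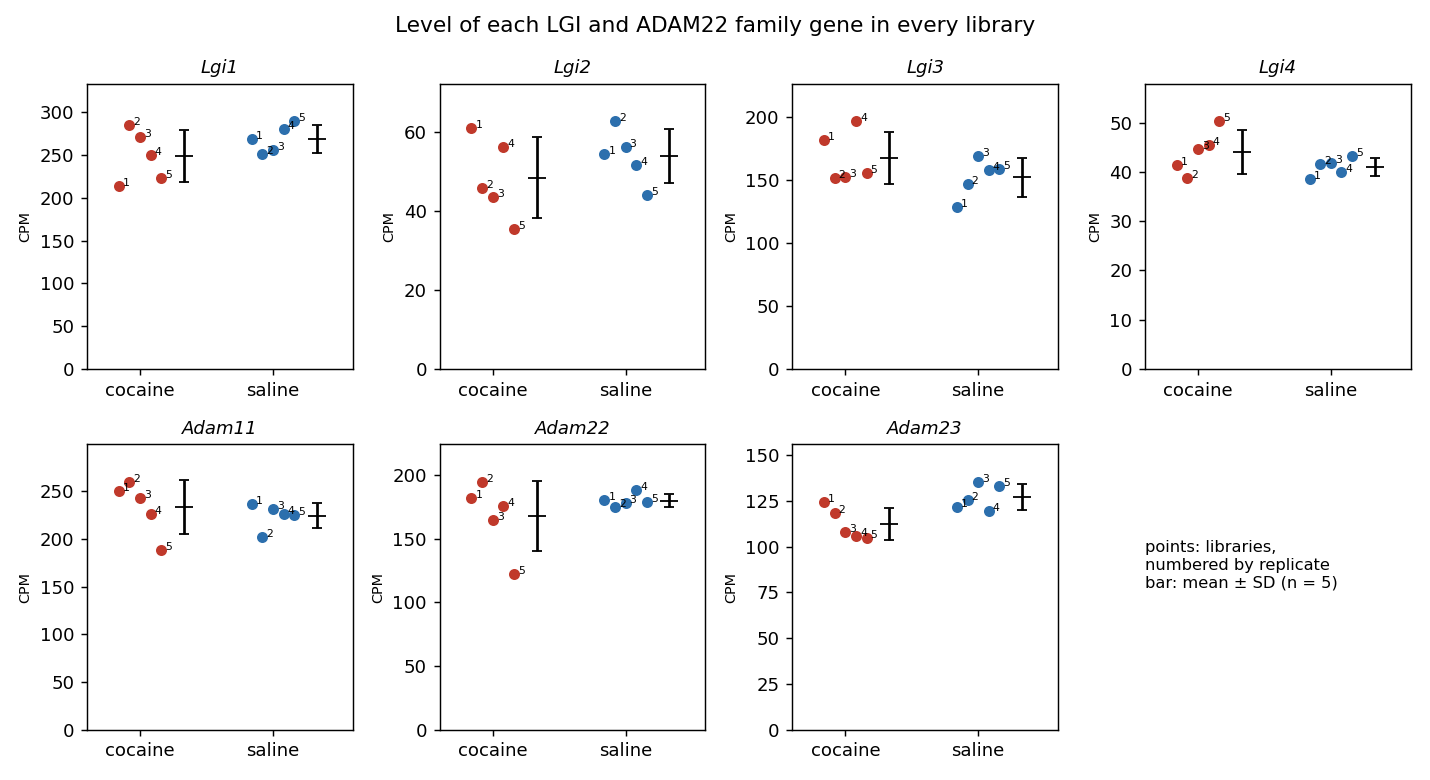
CPM of each member by library, with points numbered by replicate and the mean ± SD of each group (n = 5) beside them, on axes that start at 0. Adam23 has 4 cocaine libraries below every saline library, replicate 2 by a narrow margin. Adam22 has cocaine replicate 5 at 122 CPM, apart from the other libraries.

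**Figure D2:**
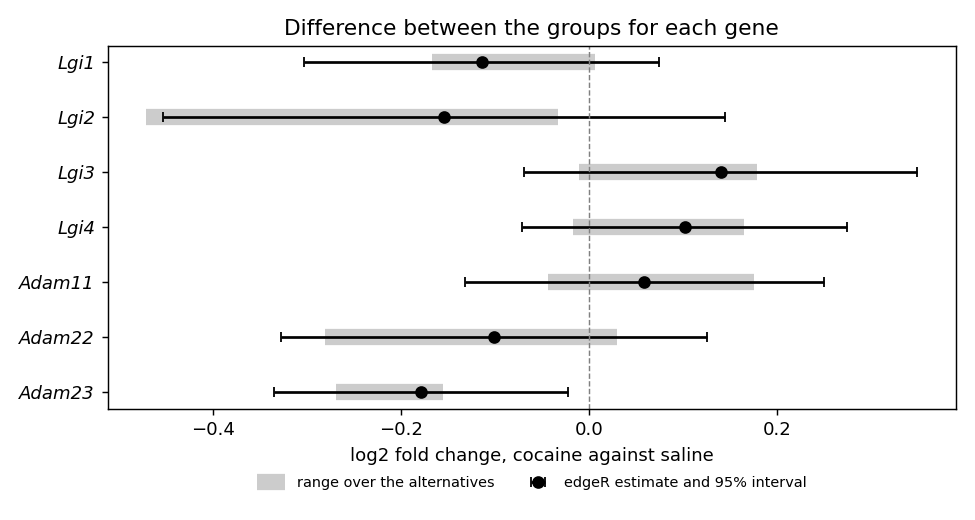
The log2 fold change of cocaine against saline for each member, with its 95% interval from edgeR as a black line and the lowest to highest value over the alternative analyses as a grey bar. The interval of Adam23, −0.34 to −0.02, lies below 0, and those of the other 6 members hold 0.

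Within a group 6 of the 7 members varied less than the median of all genes tested, which were not matched to the members in level. The biological coefficient of variation, edgeR's estimate of the spread between mice, was 0.0929 for Adam23 and 0.0995 for Lgi4, against a median of 0.154 over all genes tested. It was highest for Lgi2, at 0.158, and lay between 0.108 and 0.125 for the others. For each gene and group the gap of the most extreme library to its neighbour was below Dixon's criterion. The nearest was Adam11 in saline replicate 2, where the gap was 0.657 of the range and the critical value is 0.71.

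Levels of different genes were compared as TPM, counts divided by the exonic length of the gene and scaled to the same sum in every library. Lgi3 stood at 171 ± 23.8 TPM and Adam11 at 169 ± 20.9 TPM (SD over all 10 libraries), followed by Lgi1 at 95 ± 10.7 TPM. Adam22 stood at 50.6 ± 7.18 TPM, Lgi4 at 38.6 ± 2.37 TPM, Lgi2 at 32.7 ± 6.20 TPM and Adam23 at 27.8 ± 2.88 TPM. Lgi3 was above Adam11 in 7 of 10 libraries, and their ranges overlapped. Adam11 was above Lgi1, and Lgi1 above Adam22, in 10 of 10 libraries with ranges that stood apart. From Adam22 down to Adam23 each neighbour in the order overlapped the next. Of the 4584 exonic bases of Lgi4, 2059 are shared with Fxyd3. Whether reads from the shared bases were counted is not known. The level of Lgi4 could thus be too low, and its place in the order and the ligand shares are uncertain to that extent.

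The place of Adam23 rests on the length used. The union of its annotated exons is 17907 bases and its longest transcript 6426 bases, and with the latter its level was 59.1 ± 6.13 TPM, next to Adam22 at 59.8 ± 8.43 TPM. With that length Lgi3 stayed first at 160.4 TPM, and Adam11 and Lgi1 followed at 143 and 106 TPM. Lgi3 made up 50.6% ± 3.34 and Lgi1 28.3% ± 3.31 of the summed ligand TPM (SD over all 10 libraries), or 49.2% and 32.6% with the longest transcript. Adam11 made up 68.2% ± 1.80 of the summed receptor TPM, or 54.5% with the longest transcript.

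**Figure D3:**
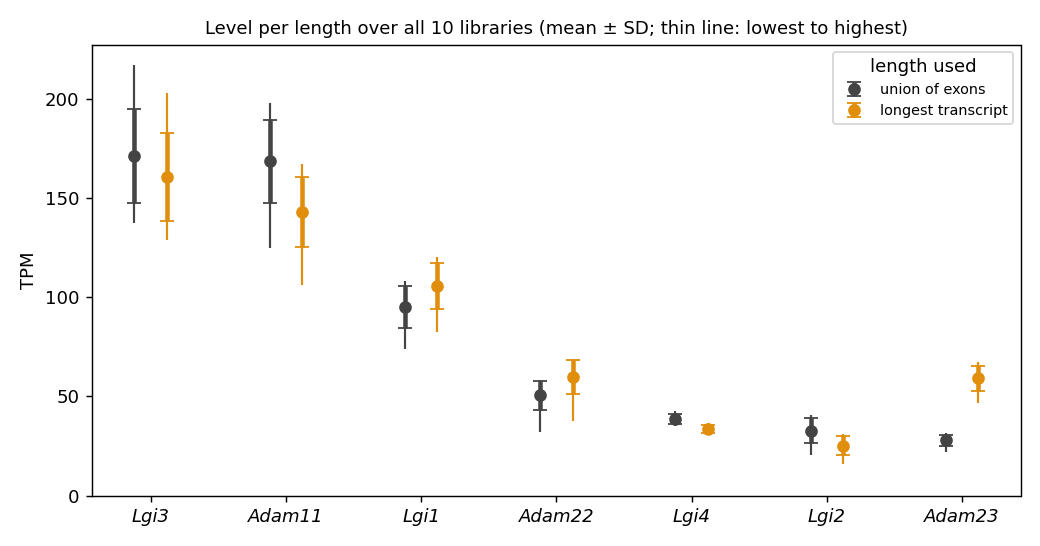
Level of each member in TPM over all 10 libraries, as mean ± SD with a thin line from the lowest to the highest library, for 2 choices of gene length. Lgi3, Adam11 and Lgi1 lead with either length, and Adam23 moves from 27.8 to 59.1 TPM.

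The members did not move as 1 block across the libraries. Pearson's r of log2 CPM was computed for the 21 pairs of members over all 10 libraries, and ranged from −0.87 to 0.74. The pair Lgi4 and Adam22, ligand and receptor of peripheral nerve myelination, had the lowest value. Its r was −0.87 (permutation p = 6.50e-04, two-sided, adjusted p = 0.0136 over the 21 pairs) and its Spearman's rho −0.82 (permutation p = 0.00559, adjusted p = 0.117). Without cocaine replicates 2 and 5, the libraries farthest from the median of Adam22, r was −0.68 (exact permutation p = 0.0594, adjusted p = 0.624). The adjusted call was thus lost with rank correlation over all 10 libraries as well as with 8 libraries. The ligand and receptor of the excitatory synapse, Lgi1 and Adam22, had r = 0.52 (permutation p = 0.126, adjusted p = 0.332) and rho = 0.42 (permutation p = 0.232), and r = −0.06 without cocaine replicates 2 and 5. The receptors Adam11 and Adam22 had r = 0.74 (permutation p = 0.0171, adjusted p = 0.180) and rho = 0.61 (permutation p = 0.0666), but r = −0.02 without cocaine replicates 2 and 5.

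Members were also set against the mean log2 CPM of the markers of 12 cell types, 84 relations in all, of which 19 had an unadjusted permutation p under 0.05 for r and 1 an adjusted p below 0.05. In such bulk tissue, fewer cells of a type and less RNA per cell cannot be told apart. Lgi1 went with the granule cell markers, such as the transcription factor Prox1, with r = 0.87 (permutation p = 0.00160, adjusted p = 0.0672) and rho = 0.79 (permutation p = 0.00914). Without cocaine replicates 1 and 5, where both were lowest, r was 0.62. Against the oligodendrocyte markers Lgi1 had r = −0.74 (permutation p = 0.0170, adjusted p = 0.133). Without cocaine replicates 4 and 5 that was −0.73. Against the precursor markers Lgi1 had r = −0.71 (permutation p = 0.0208, adjusted p = 0.134), and −0.75 without cocaine replicates 2 and 4. Against the choroid plexus markers it had r = −0.64 (permutation p = 0.0456, adjusted p = 0.208). Without cocaine replicate 5 and saline replicate 5 that was −0.39. Lgi4 went with the oligodendrocyte markers, such as the myelin gene Mbp, with r = 0.80 (permutation p = 0.00427, adjusted p = 0.0675) and rho = 0.82 (permutation p = 0.00619). Without cocaine replicates 4 and 5 its r was 0.49. With the oligodendrocyte precursor markers Lgi4 had the same r of 0.80 (permutation p = 0.00482, adjusted p = 0.0675) and rho = 0.75 (permutation p = 0.0174), and r = 0.76 without cocaine replicates 2 and 4. Over all 10 libraries r was lower with microglia (r = 0.72, rho = 0.30) and endothelium (r = 0.70, rho = 0.65). Each had an adjusted permutation p of 0.155 for r. With astrocytes r was 0.62 (permutation p = 0.0517, adjusted p = 0.217). Without cocaine replicates 2 and 5 these values, in the same order, were −0.24, 0.32 and 0.01. After centring each group on its mean, r of Lgi4 was 0.86 with endothelium, 0.83 with microglia and 0.81 with astrocytes. It was then 0.75 with oligodendrocytes and 0.78 with the precursors. The adjusted permutation p of these centred values ran from 0.178 to 0.324. Lgi3 had r = 0.71 with the oligodendrocyte markers (permutation p = 0.0189, adjusted p = 0.133) and rho = 0.70 (permutation p = 0.0302). Without cocaine replicates 4 and 5 that r was 0.86. Against the GABAergic interneuron markers Lgi3 had r = −0.66 (permutation p = 0.0402, adjusted p = 0.199). Without cocaine replicate 1 and saline replicate 1 that was −0.30.

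The oligodendrocyte markers had higher means with cocaine, and none passed the adjusted threshold. Each of the 15 was above 1 in fold change (median on the log2 scale 0.62), 14 of them at an unadjusted p under 0.05, where 5.58% of all genes were higher at that level, and the groups overlapped for each of them. Cocaine replicates 2 and 3 lay within the saline range of the mean over the list. Leaving out cocaine replicate 5 gave a median of 0.48, with 8 of 15 at an unadjusted p under 0.05, against 8.87% of all genes higher there. None of the 15 was at 0. With their mean as a covariate the log2 fold change was −0.00428 for Lgi3 and −0.02 for Lgi4, and 0.01 for Lgi1. For Adam11 it was 0.18 (unadjusted p = 0.0886 in edgeR) and for Adam23 −0.17 (unadjusted p = 0.0868). Lgi2 went with the mossy cell markers, genes of the excitatory neurons of the hilus, with r = 0.72 (permutation p = 0.0189, adjusted p = 0.133) and rho = 0.78 (permutation p = 0.0107), and with r = 0.65 without cocaine replicates 1 and 4.

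Adam11 went against the microglial markers, such as the receptor genes Cx3cr1 and Csf1r, with r = −0.89 (permutation p = 3.10e-04, adjusted p = 0.0260 over the 84 relations) and rho = −0.89 (permutation p = 0.00129, adjusted p = 0.108). Without cocaine replicates 2 and 5 it was r = −0.67 (exact permutation p = 0.0610, adjusted p = 0.633), and the adjusted call was lost in both. Adam11 also ran against the astrocyte markers, with r = −0.84 (permutation p = 0.00266, adjusted p = 0.0675) and rho = −0.78 (permutation p = 0.0110). Against the endothelial markers it had r = −0.81 (permutation p = 0.00475, adjusted p = 0.0675) and rho = −0.84 (permutation p = 0.00354). Leaving out the same libraries gave r = −0.57 and r = −0.56. Adam22 had r = −0.86 with the microglial markers (permutation p = 0.0169, adjusted p = 0.133) and rho = −0.41. With the astrocyte markers it had r = −0.75 (permutation p = 0.00617, adjusted p = 0.0740) and rho = −0.75. Without cocaine replicates 2 and 5 these r of Adam22 were 0.42 and −0.26. Its r with the granule cell markers was 0.67 (permutation p = 0.0176, adjusted p = 0.133). With the oligodendrocyte markers its r was −0.62 (permutation p = 0.0357, adjusted p = 0.188). With the precursor markers it was also −0.62 (permutation p = 0.0470, adjusted p = 0.208). Summed microglial markers lay at 247 to 409.5 CPM in the cocaine group and 289 to 320.5 CPM in the saline group, with cocaine replicate 5 the highest and replicate 2 the lowest. Adam23 had 0 marker lists at an unadjusted permutation p under 0.05 for r.

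**Figure D4:**
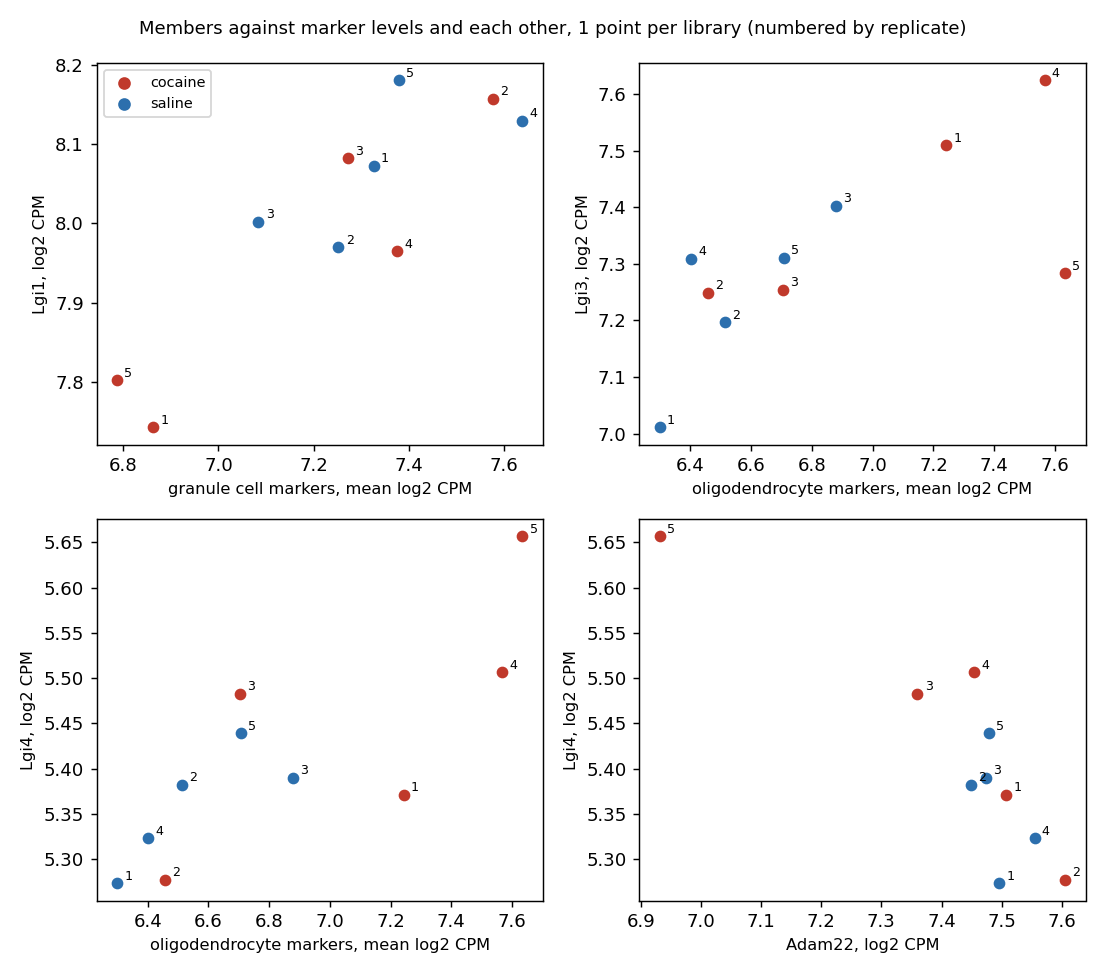
Log2 CPM of a member against the mean log2 CPM of a marker list or against another member, with 1 point per library, numbered by replicate and coloured by group. Lgi1 follows the granule cell markers (r = 0.87), Lgi3 and Lgi4 the oligodendrocyte markers (r = 0.71 and 0.80), with cocaine replicate 5 off the trend of Lgi3, and Lgi4 runs against Adam22 (r = −0.87), with cocaine replicate 5 far to the left.

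The genes whose pattern was most like each member were taken as the 2 with the highest r over all 10 libraries among 11338 other protein-coding genes at 5 CPM or more. Being chosen as the highest of many, they have no p. For Lgi1 these were Klhdc1 (r = 0.97) and Med16 (0.96), and for Lgi3 Adamts2 (0.92) and Plxnb3 (0.92). For Lgi2 the closest was Jak2 (0.97). For Lgi4 they were Csnk2b (0.97) and Naxd (0.95). For the receptors they were Hif1an (0.95) and Tbp (0.94) with Adam11, Rc3h1 (0.99) with Adam22, and Clstn3 (0.94) and Lrpprc (0.93) with Adam23. An r above 0.9 was reached by 300 genes for Adam22 and by 5 for Adam23. Without cocaine replicate 5 it was reached by 5 genes for Adam22 and by 7 for Adam23, and Rc3h1 with r = 0.90 was no longer the closest to Adam22. Klhdc1, Jak2 and Hif1an remained the closest to Lgi1, Lgi2 and Adam11. Med16 fell to rank 5 for Lgi1 and Tbp to rank 4 for Adam11. For Lgi3, Adamts2 and Plxnb3 fell to ranks 28 and 21, with r = 0.92 and 0.93. For Lgi4, Csnk2b and Naxd fell to ranks 2 and 9, and for Adam23, Clstn3 and Lrpprc fell to ranks 4 and 5. No member was among the 2 closest genes of another.

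Of the proteins that the complex works with, none of the postsynaptic scaffold and AMPA receptor genes passed a test. Of 12 tested, 11 had a fold change below 1, against 46.4% of all genes, and the median log2 fold change was −0.10, against 0.02 over all genes tested. At an unadjusted p under 0.05 there were 0 in either direction. The granule cell markers, of which 7 of 8 were below 1, had a median of −0.16, and the oligodendrocyte markers one of 0.62. The part of these lists in the values was not tested. Without cocaine replicate 5 the scaffold list still had 11 of 12 below 1, with a median of −0.04, and the granule cell markers had 6 of 8 below 1, with a median of −0.09, where 51.6% of all genes were below 1. The smallest p were those of the scaffold gene Dlg2 at −0.21, the AMPA receptor subunit gene Gria1 at −0.20 and Cacng2, which codes for the AMPA receptor partner stargazin, at −0.16. Gria1 stood at 1174 ± 203 CPM in the cocaine and 1352 ± 94.0 CPM in the saline group (SD, n = 5). Dlg4, which codes for PSD-95, was at −0.10 (SE 0.07).

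The axonal Kv1 complex had 10 of 13 genes lower than 1 in fold change, and its median log2 value was −0.16, where 46.4% of all genes were below 1. At an unadjusted p under 0.05, 1 was higher and 2 were lower, against 5.58% and 3.33% of all genes, and 0 passed after adjustment. The median was −0.09 without cocaine replicate 5, with 1 higher and 1 lower, against 8.87% and 4.96% of all genes there. Kcnab1, an auxiliary subunit of Kv1 channels, stood at 165 ± 17.3 CPM in the cocaine and 194 ± 18.3 CPM in the saline group (SD, n = 5), which is −0.23 on the log2 scale. The channel subunit gene Kcna4 was at −0.26. Cntn2, which codes for an adhesion protein of the juxtaparanode that oligodendrocytes also make, was at 0.39. The oligodendrocyte markers had a median of 0.62, and their part in the value of Cntn2 was not tested.

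Of 21 other binding and trafficking partners, 18 had a fold change below 1 (46.4% over all genes), with a median of −0.07. An unadjusted p under 0.05 was found for 1 higher gene, Lin7b at 0.21, and for 3 lower genes, against 5.58% and 3.33% of all genes, and 0 passed after adjustment. The median was −0.12 without cocaine replicate 5, with 0 higher and 5 lower at that level, where 4.96% of all genes were lower. The groups did not overlap for 1 gene, the scaffold gene Cask at 68.2 ± 4.06 CPM in the cocaine and 75.3 ± 2.68 CPM in the saline group (SD, n = 5), and over all genes the share was 1.38%. Among the 3 lower genes were Lin7a, a scaffold gene of the synapse, at −0.32 and Rtn4rl1, a relative of the Nogo receptor, at −0.16. Rtn4rl1 stood at 121 ± 7.04 CPM in the cocaine and 135 ± 6.91 CPM in the saline group (SD, n = 5).

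The other ADAM genes, which mostly code for active proteases, had 6 of 8 tested genes higher than 1 in fold change, with a median log2 value of 0.23, and Adam28 did not pass the low-count filter. Above 1 lay 53.6% of all genes. At an unadjusted p under 0.05, 1 was higher and 1 lower, against 5.58% and 3.33% of all genes, and 0 passed after adjustment. Leaving out cocaine replicate 5 gave a median of 0.26, with 4 higher and 1 lower, against 8.87% and 4.96% of all genes there. Adam12 was at 0.44 at a low level, 2.69 CPM in the cocaine and 1.98 CPM in the saline group. Adam10, the main sheddase of neurons, stood at 89.6 ± 5.74 CPM in the cocaine and 99.5 ± 4.69 CPM in the saline group (SD, n = 5), which is −0.15 on the log2 scale, and its groups did not overlap, as in 1.38% of all genes. Adam19 was at 0.27.

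**Figure D5:**
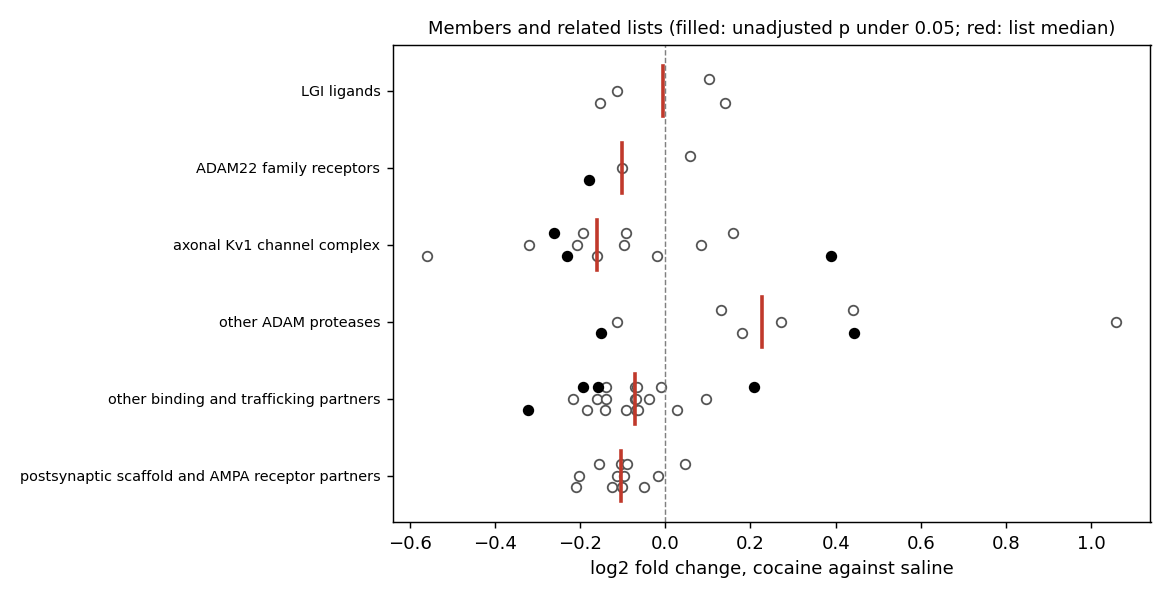
Log2 fold change of cocaine against saline for the members and for each gene of the related lists, with filled points at an unadjusted p under 0.05 and the median of each list in red. The scaffold and AMPA receptor list has a median of −0.10 and no filled point, and Adam23 is the 1 filled point among the members.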

How the data were processed

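Poly(A) RNA of 10 libraries, 5 per group, was deposited as raw counts per Ensembl gene. Per the submitters' processing notes, cutadapt, STAR, Cufflinks, HTSeq and mm10 were used by the authors to make the counts. Not given in the sources used here were versions, annotation release, strand setting and filters. Of 49315 genes, 49040 matched GENCODE M21, which gave symbols, lengths and coordinates. No 2 libraries were identical, and p-values measure the spread between mice.

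Genes were tested with edgeR 4.0.16 (R 4.3.3): TMM factors (0.963 to 1.03), filterByExpr, quasi-likelihood F test, two-sided, Benjamini-Hochberg over all 17080 genes, threshold 0.05. The SE is the log2 fold change divided by the root of F. The procedure was tested on simulated counts. CPM uses TMM-adjusted totals, and log2 CPM a prior count of 2. Correlations over all 10 libraries used 100000 random permutations across both groups. Those over 8 libraries used every order, and those after centring used every order within the groups. Benjamini-Hochberg was applied within each family. DESeq2 1.42.0 and limma 3.58.1 voom were alternatives, with other scalings, no filter, covariates, the replicate block and each library left out. Lists and most similar genes without cocaine replicate 5 were added after seeing the data.

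Named genes are the 7 members, the 3 genes of each related list with the smallest p, and the 2 genes most like each member. Marker genes are named only where a relation to a member is given. Dlg4, Lin7b, Cask and the overlapping genes Gm42723 and Fxyd3, named after their values were seen, stand outside that rule. Some genes the rule names are not reported here. The members and lists were chosen with earlier results of these data known.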

Additional observations from a re-analysis of the deposited data

How the results depend on the processing

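Upper-quartile and RLE factors, no low-count filter, DESeq2, voom, the replicate block and each library left out kept the direction of all 7 members, and no alternative brought a member past the adjusted threshold. With each library left out in turn, the log2 fold changes ran from −0.17 to −0.06 for Lgi1, −0.25 to −0.06 for Lgi2, 0.08 to 0.18 for Lgi3, 0.05 to 0.15 for Lgi4, 0.02 to 0.13 for Adam11, −0.16 to −0.01 for Adam22 and −0.22 to −0.16 for Adam23. With the oligodendrocyte marker score as a covariate, Lgi1 turned to 0.00628, Lgi3 to −0.00428, Lgi4 to −0.0172 and Adam22 to 0.0298, and Adam11 moved to 0.18. With a covariate for nuclear RNA (counts of Neat1, Malat1 and Meg3 as a share of all), Lgi3 turned to −0.0105 and Adam11 to −0.0431, and Lgi2 moved to −0.47, Adam22 to −0.28, Adam23 to −0.27 and Lgi4 to 0.17. The choroid plexus marker score as a covariate kept the direction of all 7 members. Lgi1 was then at −0.07, Adam22 at −0.08 and Adam23 at −0.19. The cause of the shifts under these covariates was not tested. Over all genes, 17 were called by DESeq2, 95 by voom with sample weights and 0 to 129 with each library left out (129 without cocaine replicate 5), against 0 in edgeR, which found 1521 at an unadjusted p under 0.05. The members at an unadjusted p under 0.05 numbered 0 with the oligodendrocyte score and 2 with the nuclear RNA share, against 8.92% and 6.45% of all genes. With each library left out they numbered 0 to 1 (0 without cocaine replicate 3 or 4 or saline replicate 3 or 5), against 5.43% to 13.8% of all genes. The members whose groups do not overlap numbered 0 to 1 with each library left out, against 1.72% to 6.05% of all genes. They numbered 1 without the 3 libraries richest in choroid plexus markers, a setting chosen after seeing the data, against 10.7% of all genes. With the longest transcript as length the level was 25.2 TPM for Lgi2, 33.4 for Lgi4, 143 for Adam11, 59.8 for Adam22 and 59.1 for Adam23. Both relations with an adjusted p below 0.05 lost it as Spearman's rho, without the farthest libraries and after centring each group, where r was −0.86 for Lgi4 with Adam22 (adjusted p = 0.112) and −0.89 for Adam11 with microglia (adjusted p = 0.178).

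With the replicate block, 0 of the members had an unadjusted p under 0.05, against 6.56% of all genes, and 0 genes were called. Same-numbered libraries correlated at −0.22 to 0.03 in their deviations from the group means. These correlations gave no sign that the numbers pair the mice, but could miss a pairing with a small effect on expression.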

Other observations

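A ratio of counts within a library does not depend on the scaling of libraries, and shows unequal change without saying which gene moved. The ratios here were chosen after the values were seen and carry no test. The count of Adam11 over that of Adam23 was 2.02, 2.19, 2.26, 2.14 and 1.80 in cocaine replicates 1 to 5 and 1.94, 1.61, 1.71, 1.90 and 1.69 in those of saline. All cocaine libraries except replicate 5 lay above every saline library. The count of Lgi3 over that of Lgi1 was 0.851, 0.533, 0.563, 0.790 and 0.698 with cocaine and 0.479, 0.585, 0.660, 0.566 and 0.547 with saline, and cocaine replicates 1, 4 and 5 lay above every saline library. In the same libraries the oligodendrocyte markers had a mean log2 CPM of 7.24, 7.57 and 7.63, above the 6.30 to 6.88 of the saline libraries, and the part of those markers in the ratio was not tested. Summed over the families, the ligands stood at 1.40 ± 0.173 times the receptors in TPM with cocaine and 1.35 ± 0.0876 times with saline (SD, n = 5).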
